A study of Mus musculus with 6 samples.

Results

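Fibronectin, 3 thrombospondins, tenascin-C, periostin and both nidogens are secreted proteins through which cells attach to, read and organise the extracellular matrix. The 8 genes Fn1, Thbs1, Thbs2, Thbs3, Tnc, Postn, Nid1 and Nid2 were taken by name, through their Entrez numbers, from a table of 26532 genes. Of the 8, 7 passed the filter on low counts. Postn did not. RNA was sequenced from mouse embryonic fibroblasts (MEFs), a type of connective tissue cell, with 3 libraries per group. The GFP group is titled AdGFP, the usual way to name a recombinant adenovirus that expresses green fluorescent protein, and has the genotype label WT. The ORAI2 group is titled AdORAI2, after a subunit that forms the pore of calcium channels opened by store depletion, and has the genotype label ORAI2 Overexpression. Both groups share the cell type label mesenchymal stem cells and the treatment label osteogenic differentiation. The series title names BMP9, but the sample labels do not say whether it was added, how long the cells were kept, which promoter drove the transgenes or whether the libraries of a group were separate cultures. The p-values therefore measure the spread between these libraries, which may be technical. The comparison addresses how the mRNA levels of these genes differ between cells with added ORAI2 and cells with GFP.

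Fibronectin is deposited as fibrils by cells that pull on it through integrins, and these fibrils serve as a scaffold on which collagens and other matrix proteins assemble. Thrombospondins, tenascin-C and periostin are called matricellular: they are secreted into the matrix but act mainly by modulating receptors, growth factors and proteases rather than as structural fibres. Nidogens link the laminin and type IV collagen networks of basement membranes. In bone-forming cultures the fibronectin matrix precedes type I collagen, and periostin takes its name from the periosteum, the layer of connective tissue around bone.

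Total counts per library lay between 18526884 and 18844436. The targeted gene, Orai2, followed the labels: it had 994, 914 and 909 counts under AdGFP, and 67882, 53034 and 45140 under AdORAI2. Of the fibroblast markers, 9 of 11 were tested and all 9 tested ones fell, with Fap and Thy1 under the filter. Their summed level ranged from 2378 to 2457 CPM (counts scaled to the library total) in the GFP libraries and from 1248 to 1367 CPM in the ORAI2 libraries. Col1a1, the highest of them, weighs most in this sum and went from a mean of 1260 to 486 CPM. Over all 13764 tested genes, 22.1% were called lower and 20.8% higher, the shares beside which the marker counts here stand. Of 5 mesenchymal stem cell markers 4 were tested, 2 fell and 1 rose, with sums of 519.7 to 566.1 and 481 to 493.1 CPM, and Thy1, with at most 3 counts in a library, was near 0. Summed markers of macrophages ranged from 51.9 to 55.6 and from 26.7 to 36.0 CPM (3 of 7 tested, 2 lower, Adgre1 not analysed here), of endothelium from 6.42 to 8.88 and from 16.3 to 17.5 CPM (2 of 7 tested, 2 higher, Emcn at 0) and of epithelium from 2.80 to 3.74 and from 4.21 to 5.12 CPM (2 of 7 tested, 1 higher, Epcam at 0). Those of skeletal muscle were under 1 CPM in every library (1 of 4 tested, none called, Myod1, Myog and Myf5 not analysed here). Those of nerve and glia summed to between 131.7 and 143.9 CPM under AdGFP and to between 163.3 and 174.4 CPM under AdORAI2 (4 of 5 tested, 1 lower and 1 higher, Sox10 not analysed here). The part of these shifts in the results below was not tested. In bulk RNA, fewer cells of a type and less RNA per cell cannot be told apart.

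The 3 sequences below are shown because Thbs2, Thbs3 and Tnc each fell and the 250 bases before their annotated starts lie outside annotated exons. They come from RefSeq promoter windows of GRCm38.p6, which held 5 of the 8 genes (Thbs2, Thbs3, Tnc, Postn and Nid1), whereas the submitters name GRCm39 for the counts, so the coordinates serve only to identify the windows. Thbs2 is at chr17:14694263-14694512 on the minus strand, Thbs3 at chr3:89214930-89215179 on the plus strand and Tnc, at the more upstream of its 2 annotated starts, at chr4:64047016-64047265 on the minus strand. Each is written 5′ to 3′ toward the gene, and capitals mark matches to the motifs named in the next paragraph.
Thbs2: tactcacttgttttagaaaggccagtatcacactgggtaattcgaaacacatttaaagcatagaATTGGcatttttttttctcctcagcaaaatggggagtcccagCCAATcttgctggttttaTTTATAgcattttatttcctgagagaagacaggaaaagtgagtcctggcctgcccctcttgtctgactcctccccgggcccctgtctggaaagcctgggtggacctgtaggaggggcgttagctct
Thbs3: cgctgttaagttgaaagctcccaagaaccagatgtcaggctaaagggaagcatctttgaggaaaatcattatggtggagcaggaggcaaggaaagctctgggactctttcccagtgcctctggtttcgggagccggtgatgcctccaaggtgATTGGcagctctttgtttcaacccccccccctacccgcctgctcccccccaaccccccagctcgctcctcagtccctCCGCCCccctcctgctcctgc
Tnc: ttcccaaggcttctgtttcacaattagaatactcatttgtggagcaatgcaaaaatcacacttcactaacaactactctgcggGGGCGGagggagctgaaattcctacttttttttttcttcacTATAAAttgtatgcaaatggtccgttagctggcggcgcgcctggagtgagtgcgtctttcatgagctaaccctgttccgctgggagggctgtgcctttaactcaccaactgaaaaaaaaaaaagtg

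The windows were searched on both strands for AP-1 (TGANTCA), the CArG box bound by serum response factor, a GC box (GGGCGG) and the CCAAT box, whose name gives its letters. The last motif searched was the TATA box, spelled TATAAA. A CArG box can contain the letters of the CCAAT or TATA box, but no window shown held a CArG match. Thbs2 held 2 CCAAT matches and 1 TATA match, Thbs3 held 1 GC box and 1 CCAAT match, and Tnc held 1 GC box and 1 TATA match. Both TATA matches start 126 bases upstream, against the direction of the gene in Thbs2 and along it in Tnc. All are matches of letters, and whether they act in these promoters was not tested. Over 32851 promoter windows of the same length, 33.9% held a CCAAT match, 32.7% a GC box and 12.4% a TATA match. The letters of AP-1 and of the CArG box were not in any window of the 5 genes, and they are in 6.75% and 1.47% of all windows. Nid1 held 1 GC box and 1 CCAAT match. The 2 windows of Postn differed, since only the downstream one held a motif, a TATA match.

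Each of the 7 tested genes was lower in the ORAI2 libraries by the edgeR quasi-likelihood test at a Benjamini-Hochberg adjusted p under 0.05. Over all 13764 tested genes, 22.1% were called lower, 20.8% higher and 42.9% in either direction. The median log2 fold change of the 7 was -0.76, beside -0.002 over all tested genes and -0.38 over the genes called lower. Of the 7, 5 were called lower by 1.5-fold or more (Thbs1, Thbs2, Nid2, Thbs3 and Tnc), beside 6.35% of all tested genes. The groups did not overlap in any of the 7, as in 52.8% of all tested genes. The genes were chosen with earlier results of these data known, so these shares describe them and are no independent test. The falls were far from uniform: Thbs1 kept 36.7% of its GFP level and Fn1 89.4%.

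**Figure D1:**
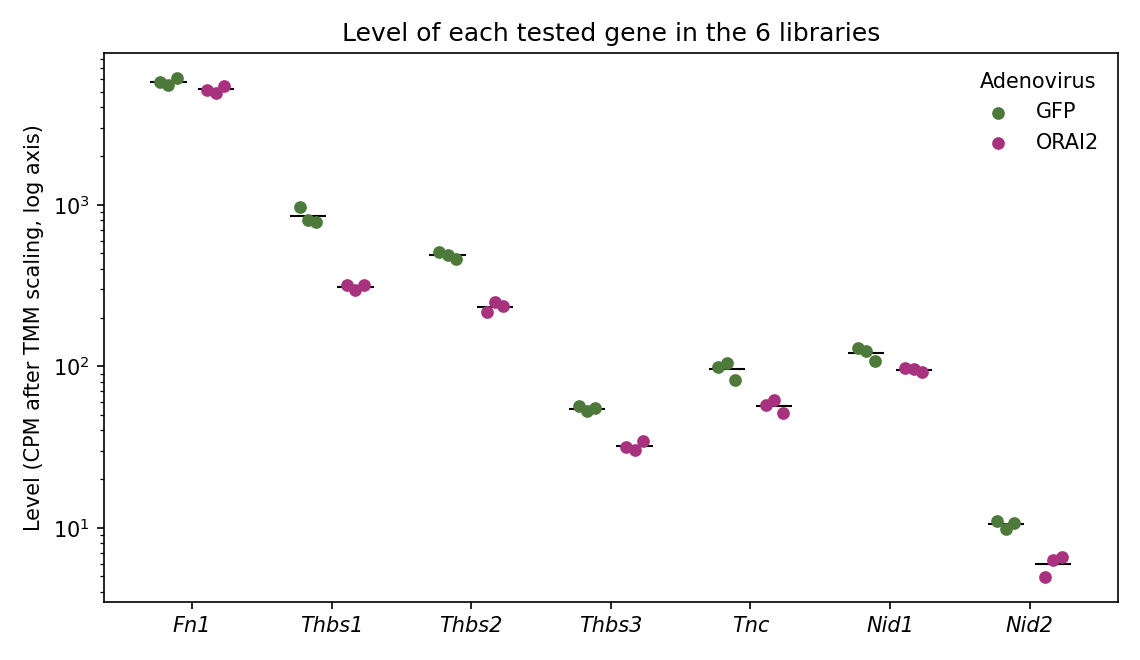
Level of each tested gene in every library, as CPM after TMM scaling on a log axis, with GFP libraries in green, ORAI2 libraries in purple and the group mean as a line (n = 3 each). For each gene all 3 ORAI2 libraries lie below all 3 GFP libraries, with the widest gap for Thbs1 and the narrowest for Fn1.

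Fn1 (Entrez 14268) encodes fibronectin, the adhesive glycoprotein recognised by integrins such as the pair of Itga5 and Itgb1. It stood at 5767, 5514 and 6095 CPM under AdGFP and at 5155, 4929 and 5447 CPM under AdORAI2. The highest ORAI2 library lay just under the lowest GFP library, so the groups were separate by a narrow margin. The level fell from 5792 ± 292 to 5177 ± 260 CPM (SD, n = 3 each), a log2 fold change of -0.16 (SE 0.05, adjusted p = 0.0142, edgeR). This was the smallest relative change among the 7, and 54.0% of all tested genes had a larger one in either direction. In counted reads, with no account of length, its mean difference was 615 CPM, or 41.1% of the 1496 CPM between the group means of the summed 7 genes. Without ORAI2 replicate 2 its call was lost (log2 fold change -0.12, adjusted p = 0.0607, edgeR).

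Thrombospondin-1 and thrombospondin-2 form trimers that bind CD47, CD36 and heparan sulphate, restrain the growth of blood vessels, and, in the case of thrombospondin-1, can release TGF-beta from its latent form. Thbs1 (Entrez 21825) stood at 964, 804 and 779 CPM under AdGFP and at 319, 296 and 319 CPM under AdORAI2. GFP replicate 1 was the highest, and the ORAI2 libraries lay close together. Thbs1 was 2.73-fold lower, from 849 ± 100.2 to 311 ± 13.7 CPM (SD, n = 3 each; log2 fold change -1.45, SE 0.07, adjusted p = 1.57e-08, edgeR). Only 0.872% of the tested genes had a lower log2 fold change than Thbs1. Its mean difference of 538 CPM was 35.9% of that of the summed 7 genes, again without length.

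Thbs2 (Entrez 21826), whose upstream sequence is shown above, stood at 507, 488 and 462 CPM under AdGFP and at 215, 249 and 235 CPM under AdORAI2. ORAI2 replicate 1 was the lowest, and the highest ORAI2 library lay far under the lowest GFP library. The gene was 2.08-fold lower, from 486 ± 22.8 to 233 ± 17.2 CPM (SD, n = 3 each; log2 fold change -1.06, SE 0.05, adjusted p = 1.98e-08, edgeR). Thbs3 (Entrez 21827) belongs to the other branch of the family, which forms pentamers. It stood at 56.5, 52.6 and 54.9 CPM under AdGFP and at 31.8, 30.3 and 34.6 CPM under AdORAI2. Both groups were tight and well apart. Thbs3 was 1.70-fold lower, from 54.7 ± 1.96 to 32.2 ± 2.20 CPM (SD, n = 3 each; log2 fold change -0.76, SE 0.06, adjusted p = 5.34e-07, edgeR). In the GENCODE annotation 318 exonic bases of Thbs3 overlap Mtx1 on the opposite strand, and whether the counting used strand is not stated, so reads there cannot be told apart. Mtx1 went the other way, from 25.1 to 30.8 CPM (adjusted p = 0.00140, edgeR). Noncoding genes on the opposite strand also share exonic bases with other members: 292 with Fn1, 208 with Thbs1, 176 with Tnc and 143 with Nid1.

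Counts of related genes were also compared within each library, where no scaling between libraries enters. The log2 ratio of Thbs1 to Thbs2 was 0.93, 0.72 and 0.76 under AdGFP and 0.57, 0.25 and 0.44 under AdORAI2, a mean difference of -0.38. That of Thbs1 to Thbs3 went from 3.95 ± 0.13 to 3.27 ± 0.06 and that of Thbs2 to Thbs3 from 3.15 ± 0.07 to 2.86 ± 0.16 (SD, n = 3 each), differences of -0.68 and -0.30. In each of these pairs of genes the groups did not overlap. The exact two-sided permutation test gave p = 0.1 for each of the 4 ratios tested, the smallest that 3 against 3 libraries allow, and 0.1 after adjustment over the 4, so the design cannot pass 0.05. Per length of exon, Thbs1 made up 63.3% ± 1.79 of the 3 thrombospondin mRNAs in the GFP libraries and 56.2% ± 2.37 in the ORAI2 libraries (SD, n = 3), Thbs2 31.5% ± 1.53 and 36.5% ± 2.61, and Thbs3 5.16% ± 0.35 and 7.32% ± 0.38. Summed, the 3 genes went from 1389 ± 122 to 577 ± 11.7 CPM, 2.41-fold lower. Thbs4 had 1 count in all libraries together, and Comp, which encodes the fifth thrombospondin, had between 4 and 9 counts per library.

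**Figure D2:**
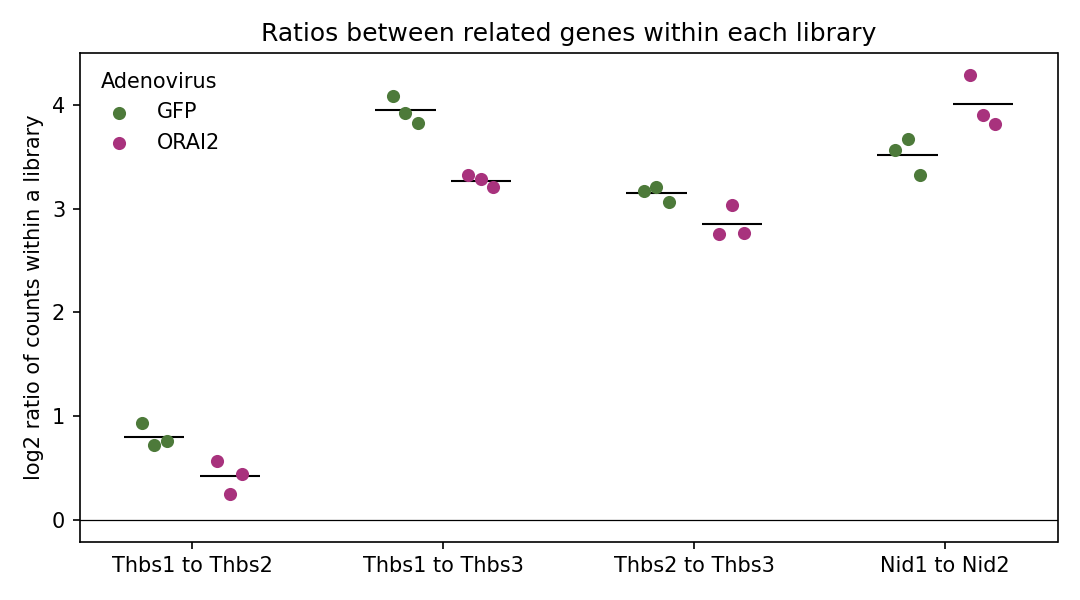
Log2 ratio of counts between related genes within each library (GFP green, ORAI2 purple, lines at group means, n = 3 each). The 3 thrombospondin ratios are lower and the ratio of Nid1 to Nid2 is higher in the ORAI2 libraries, and no pair of groups overlaps.

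Tnc (Entrez 21923) encodes tenascin-C, a hexameric glycoprotein that binds fibronectin and syndecans and loosens cell adhesion. It stood at 99.2, 105.3 and 82.2 CPM under AdGFP and at 57.2, 61.7 and 51.5 CPM under AdORAI2. Replicate 3 was the lowest of its group in both. Tnc was 1.68-fold lower, from 95.6 ± 11.96 to 56.8 ± 5.09 CPM (SD, n = 3 each; log2 fold change -0.75, SE 0.08, adjusted p = 1.52e-05, edgeR). The other tenascins were scarce: Tnn and Tnr had no more than 6 counts in any library and were not tested, and Tnxb had 4 ± 0.21 and 3.78 ± 0.38 CPM (log2 fold change -0.08, SD, n = 3; adjusted p = 0.680, edgeR).

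Postn (Entrez 50706), the gene of periostin, which binds collagen and tenascin-C and aids the activation of lysyl oxidase, was at the limit of detection. It had 0, 0 and 1 counts under AdGFP and 0, 1 and 0 under AdORAI2. At these depths a count of 0 allows a level of up to 0.159 to 0.162 CPM (3 counts, counting error only), so no difference was detectable. The mRNAs of several of periostin's partners were abundant in the same libraries: Fn1 as above, Col1a1 at 1260 ± 47.6 and 486 ± 18.4 CPM and Lox at 1035 ± 36.2 and 428 ± 43.6 CPM (GFP and ORAI2, SD, n = 3).

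Nid1 (Entrez 18073) encodes nidogen-1, a rod-like protein that joins laminin to type IV collagen. It stood at 130.3, 124.4 and 107.8 CPM under AdGFP and at 97.2, 95.6 and 92.5 CPM under AdORAI2. The GFP libraries were more spread than the ORAI2 libraries, whose highest value lay under the lowest GFP value. Nid1 was 1.27-fold lower, from 120.8 ± 11.7 to 95.1 ± 2.35 CPM (SD, n = 3 each; log2 fold change -0.35, SE 0.06, adjusted p = 4.74e-04, edgeR). Nid2 (Entrez 18074) encodes nidogen-2, its less abundant relative. It stood at 10.9, 9.79 and 10.7 CPM under AdGFP and at 4.96, 6.35 and 6.54 CPM under AdORAI2, on counts of 204, 183 and 200 against 92, 119 and 121. ORAI2 replicate 1 was the lowest, and no ORAI2 library reached the GFP range. Nid2 was 1.76-fold lower, from 10.5 ± 0.61 to 5.95 ± 0.87 CPM (SD, n = 3 each; log2 fold change -0.82, SE 0.12, adjusted p = 1.09e-04, edgeR). In the annotation 437 of its exonic bases overlap Rtraf on the opposite strand, so part of its reads cannot be assigned with certainty. Rtraf had 119 ± 4.52 and 113 ± 5.30 CPM (SD, n = 3; adjusted p = 0.181, edgeR).

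The log2 ratio of Nid1 to Nid2 counts was 3.57, 3.67 and 3.33 under AdGFP and 4.29, 3.91 and 3.82 under AdORAI2. All 3 ORAI2 values were above the GFP values, with a mean difference of 0.48 (exact permutation p = 0.1, as above). Per length of exon, Nid2 made up 10.5% ± 1.14 of nidogen mRNA in the GFP libraries and 7.75% ± 1.19 in the ORAI2 libraries (SD, n = 3).

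Levels can be set against each other between genes only per length. In CPM per kilobase of exon, the order in the GFP libraries was Fn1 at 496 ± 25.0, Thbs1 at 139.8 ± 16.5, Thbs2 at 69.3 ± 3.25, Nid1 at 17.4 ± 1.68, Tnc at 12.3 ± 1.54, Thbs3 at 11.3 ± 0.41 and Nid2 at 2.03 ± 0.12 (SD, n = 3). In the ORAI2 libraries the levels per kilobase were 443 ± 22.3 for Fn1, 51.3 ± 2.26 for Thbs1, 33.3 ± 2.45 for Thbs2, 13.7 ± 0.34 for Nid1, 7.31 ± 0.66 for Tnc, 6.68 ± 0.46 for Thbs3 and 1.15 ± 0.17 for Nid2. The order was the same in both groups. Tnc and Thbs3 did not differ beyond their spread in either group, whereas the other neighbours did. Without Fn1, the summed level of the other 6 tested genes was 1768, 1584 and 1497 CPM under AdGFP and 726, 739 and 740 CPM under AdORAI2, 2.20-fold lower, and with Fn1 the sum was 1.25-fold lower.

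**Figure D3:**
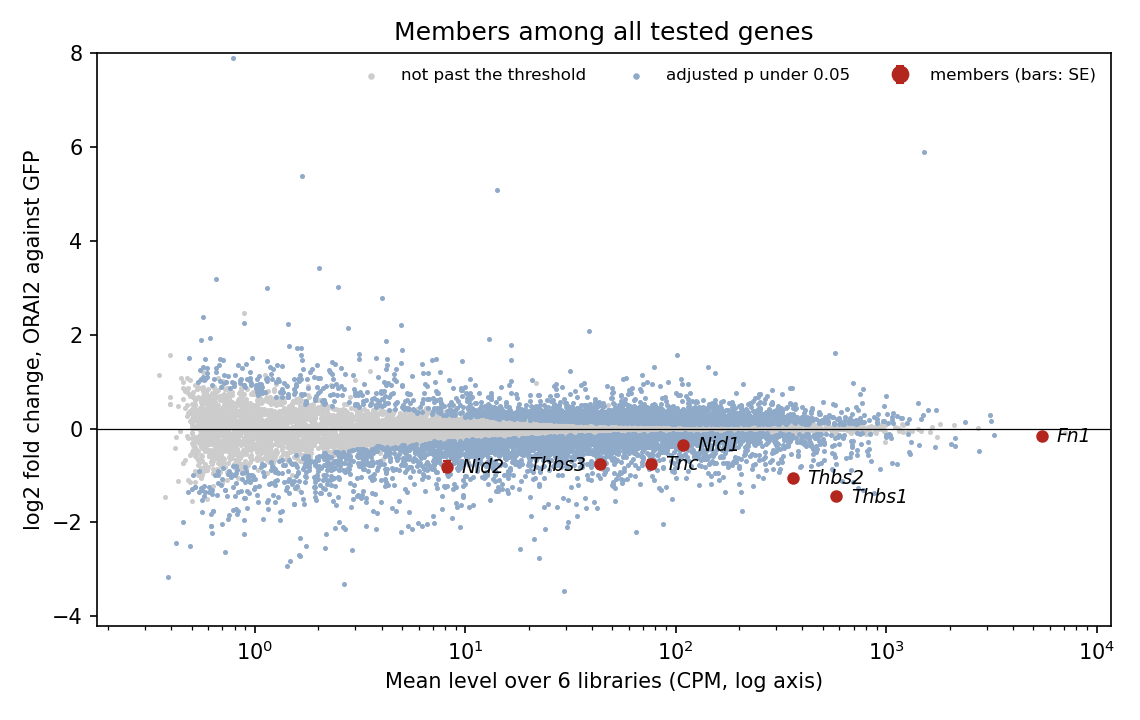
Log2 fold change of ORAI2 against GFP over the mean level in CPM (log axis) for all 13764 tested genes, with genes past the threshold in blue, the others in grey and the 7 tested genes in red with SE bars. Thbs1 and Thbs2 lie at the lower edge of the cloud at their level, while Fn1 lies close to the zero line at the far right.

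The profiles over the 6 libraries were compared with those of 10123 genes of at least 5 CPM, by the root mean square difference of log2 CPM centred on each gene's mean. As the libraries form only the GFP and ORAI2 groups, this measure mainly picks genes with a similar log2 fold change. Shared regulation was not tested. The nearest to Thbs1 was Col1a1, the main chain of type I collagen, with a difference of 0.0888 and a log2 fold change of -1.38, followed by Lxn at 0.0888 and -1.57. The nearest to Thbs2 were Irgm2, an interferon-induced GTPase, and Tor3a, at 0.0374 and 0.0438. Nid2 was nearest to Pitpnc1 (0.0301) and to Tgm2 (0.0501), the transglutaminase that cross-links fibronectin, and Nid1 to Cyb561d2 (0.0174) and Gapdh (0.0236). Fn1 was nearest to Acbd5 and Pde4a (0.0158 and 0.0178), Thbs3 to Mtarc2 and Naaladl2 (0.0400 and 0.0422) and Tnc to Apobec1 and Slc25a22 (0.0518 and 0.0611).

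Genes that work beside these 8 were described from 4 lists, also chosen with earlier results of these data known. Of 34 other matricellular and adhesive glycoproteins, 22 were tested, of which 16 fell, 2 rose and 4 did not pass, with a median log2 fold change of -0.30. Lower were 72.7% of those tested, beside 22.1% of all tested genes, and 81.8% were called in either direction, beside 42.9%. Ccn5, a growth-restraining member of the CCN family, went from 49.2 ± 1.26 to 12.4 ± 1.65 CPM, a 3.96-fold fall (adjusted p = 4.59e-09, edgeR), and Sparc, a collagen-binding matricellular protein, fell from 373 ± 5.15 to 206 ± 6.22 CPM (adjusted p = 6.79e-09, edgeR; SD, n = 3 each). Tgfbi, which shares the fasciclin domains of periostin, was 3.63-fold lower, from 32.0 ± 5.13 to 8.82 ± 0.39 CPM, and Emilin1, a glycoprotein of elastic fibres, 2.11-fold lower (adjusted p = 9.33e-08 and 1.19e-07, edgeR). The 2 that rose, chosen for mention after their values were seen, were also of the CCN family: Ccn1 went from 264 ± 7.36 to 293 ± 6.15 CPM and Ccn2 from 94.5 ± 3.70 to 111.8 ± 6.96 CPM (log2 fold change 0.15 and 0.24, adjusted p = 0.00501 and 0.00160, edgeR). Spp1 (osteopontin), a bone matricellular protein, had 612 ± 73.9 and 545 ± 55.6 CPM (adjusted p = 0.116, edgeR).

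Of 26 basement membrane genes that surround the nidogens, 20 were tested, of which 12 fell, 3 rose and 5 did not pass (median log2 fold change -0.41). Lower were 60% of those tested, beside 22.1% of all tested genes, and 75% were called in either direction, beside 42.9%. The type IV collagen genes Col4a1, Col4a2 and Col4a5 were 1.59-fold, 1.60-fold and 1.78-fold lower (adjusted p = 4.60e-08, 2.53e-08 and 4.67e-08, edgeR). Lamc1, the laminin chain that nidogens bind, went from 496 ± 5.52 to 454 ± 2.05 CPM (log2 fold change -0.12, adjusted p = 0.00771, edgeR), and Hspg2 (perlecan) from 957 ± 25.7 to 709 ± 32.1 CPM (adjusted p = 3.76e-06, edgeR). One laminin gene of high level went the other way: Lamb1 had 208 ± 5.57 and 366 ± 11.99 CPM, 1.76-fold higher (adjusted p = 1.38e-08, edgeR), whereas its relative Lamb2, picked after its values were seen, fell from 457 ± 12.6 to 306 ± 19.96 CPM (adjusted p = 9.20e-07, edgeR; SD, n = 3 each). The other 2 that rose, Lamc3 and Egflam, had means of 0.23 and 0.50 CPM in the GFP libraries and of 0.88 and 1.24 CPM in the ORAI2 libraries.

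Of 28 receptors of these proteins, 21 were tested, of which 10 fell, 2 rose and 9 did not pass (median log2 fold change -0.26). Lower were 47.6% of those tested, beside 22.1% of all tested genes. Called in either direction were 57.1%, not far above the 42.9% of all tested genes. Cd47, the receptor of the C-terminal part of thrombospondin-1, had 237 ± 2.75 and 145 ± 11.0 CPM, a 1.63-fold fall (adjusted p = 2.29e-07, edgeR), while Cd36, another thrombospondin receptor, had no count in any library. Lrp1, the endocytic receptor that clears thrombospondins, fell from 1599 ± 39.9 to 1254 ± 76.7 CPM (adjusted p = 5.02e-05, edgeR). Cacna2d1, a calcium channel subunit that binds thrombospondins, had 176 ± 7.28 and 178 ± 2.16 CPM (log2 fold change 0.01, SE 0.04, adjusted p = 0.848, edgeR). The classical fibronectin receptor did not pass either: Itga5 had 162 ± 3.08 and 163 ± 2.39 CPM and Itgb1 929 ± 31.6 and 922 ± 12.5 CPM (log2 fold change 0.01 and -0.01, SE 0.03 and 0.04, adjusted p = 0.834 and 0.818, edgeR; SD, n = 3). Of the integrin chains that can join Itgav in receptors for matrix ligands, Itgb5 and Itgb8 fell, Itgb5 from 197 ± 7.61 to 131 ± 2.76 CPM and Itgb8 from 31.1 ± 2.67 to 13.8 ± 2.13 CPM (adjusted p = 1.83e-07 and 1.68e-06, edgeR). Itgb3, another such chain, did not pass (log2 fold change -0.42, adjusted p = 0.330, edgeR), nor did Itgb1 as above, and Itgb6 was under the filter. Sdc2, a heparan sulphate co-receptor, was 1.52-fold lower (adjusted p = 4.31e-07, edgeR), and its relative Sdc4 1.15-fold lower (adjusted p = 0.00142, edgeR). The 2 that rose were Itga6, a laminin receptor chain, and Cd44 (log2 fold change 0.37 and 0.21, adjusted p = 7.42e-04 and 0.0153, edgeR), and the Cd44 call was lost without ORAI2 replicate 1 (0.17, adjusted p = 0.0590, edgeR), which leaves 1 receptor that rose.

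Of 21 genes for assembly, cross-linking and cleavage, 19 were tested, of which 10 fell, 3 rose and 6 did not pass (median log2 fold change -0.22). Lower were 52.6% of those tested, beside 22.1% of all tested genes, and 68.4% were called in either direction, beside 42.9%. Lox, the enzyme that cross-links collagen and that fibronectin and periostin help to mature, was 2.42-fold lower, and Col1a1 2.59-fold lower (adjusted p = 1.64e-08 and 4.75e-10, edgeR). Col5a1 and Mmp2 were 1.65-fold and 1.70-fold lower (adjusted p = 4.15e-08 and 2.96e-08, edgeR). Tgm2 fell from 25.6 ± 0.73 to 13.7 ± 1.88 CPM (adjusted p = 6.74e-06, edgeR; SD, n = 3). Tgfb1, whose product thrombospondin-1 can activate, had 47.6 ± 2.40 and 49.9 ± 1.18 CPM (SD, n = 3; adjusted p = 0.309, edgeR). The 3 that rose were Mmp3, which cleaves fibronectin and nidogen, Ctsb and Furin, with log2 fold changes of 0.46, 0.29 and 0.23. The Mmp3 call was lost with a robust edgeR fit (adjusted p = 0.0730). Col1a1 and Cd44 also stand in the marker lists of fibroblasts and mesenchymal stem cells.

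**Figure D4:**
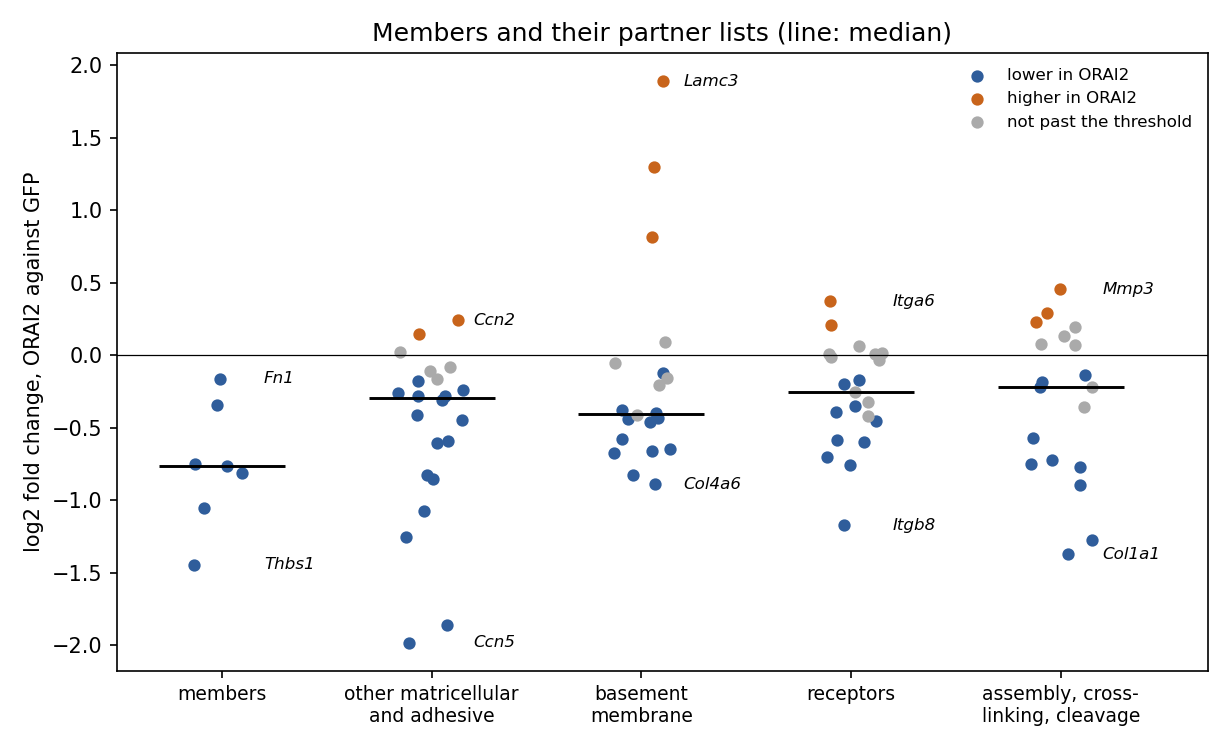
Log2 fold change of ORAI2 against GFP for the tested genes of the 5 groups, with genes lower in ORAI2 in blue, higher in orange and not past the threshold in grey, and the median of each group as a line. The medians are -0.76 for the 7 tested genes and between -0.41 and -0.22 for the 4 partner lists, and the lowest and highest gene of each group is named.

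The deposited table also holds TPM values, a unit corrected for transcript length, which were not used for the results above because the column named ORAI2-3 lists Orai2 at 36.33 TPM, near the GFP columns at 24.83, 24.86 and 38.19 TPM and far from 1429.5 and 1241.34 TPM in the columns named ORAI2-1 and ORAI2-2. Tested by limma on all 6 TPM columns as named, none of the 7 genes passed, although each was lower in the ORAI2 columns (22 genes passed in all). With the columns numbered 1 and 2 alone, a choice made after the data were seen, 5 of the 7 passed, without Fn1 and Nid1 (adjusted p = 0.194 and 0.0639, limma).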

How the data were processed

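RNA was measured in 6 libraries of mouse embryonic fibroblasts, 3 per group, as labelled in the sample titles. Per the labels' protocols, libraries were made from poly(A) RNA with random hexamers. The submitters' processing notes name GRCm39, Salmon 1.4.0 and HISAT2 2.0.4. What each tool did, the annotation and the strand setting are not stated in those notes. The authors deposited counts per gene, whole numbers that may be rounded estimates. TPM values, also deposited, entered only 2 alternatives and a description. Entrez numbers were matched to symbols in a RefSeq table of GRCm38.p6 (25631 of 26532, 96.6%).

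Counts were tested with edgeR 4.0.16 (R 4.3.3, glmQLFit and glmQLFTest, TMM, filterByExpr with a minimum count of 10), group as the only term, with Benjamini-Hochberg adjustment over 13764 genes. SEs derive from the F statistic. Levels are CPM after TMM scaling, and summed marker levels are CPM without it. Exon lengths are unions of GENCODE vM21 exons (GRCm38). Replicates of a group were not copies of one library (chi-square per gene 2.54 to 4.5). The fit was also run on simulated counts with far fewer changed genes than were called here, so that run does not vouch for these calls. Alternatives used RLE, upper-quartile and library-size scaling, other filters, DESeq2 1.42.0, limma 3.58.1 (voom and TPM), a robust fit, a replicate block and each library left out. The members and lists were chosen with earlier results of these data known. All members were named. Each list contributed up to 4 called genes with the smallest p and partners of a member given as values, and for each member the 2 most similar genes were named.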

Additional observations from a re-analysis of the deposited data

How the results depend on the processing

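For the 7 tested genes, 15 alternatives on the counts each kept the direction. The ranges of log2 fold change were -0.20 to -0.12 for Fn1, -1.51 to -1.35 for Thbs1, -1.10 to -0.998 for Thbs2, -0.81 to -0.71 for Thbs3, -0.85 to -0.68 for Tnc, -0.42 to -0.29 for Nid1 and -0.88 to -0.70 for Nid2. Every call held in all 15, except that of Fn1 without ORAI2 replicate 2. With each library left out in turn the Fn1 value ran from -0.197 to -0.123, and the receptors called higher from 1 to 2. Other matricellular genes called lower ran from 13 to 17 in these fits, against 16 in the main fit, and assembly genes from 9 to 10. Among the partner genes that fell, the calls of Fbln7, Ecm1, Matn2 and Bmp1 were each lost in at least 1 alternative. That of Bmp1 reached an adjusted p of 0.11 (edgeR) without ORAI2 replicate 1. The filter at 5 CPM left 1 basement membrane gene called higher.

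Limma on log2(TPM + 1) of all 6 columns called 22 genes, with 0 of the members lower and the log2 fold change not past the threshold at -0.35 for Fn1, -1.50 for Thbs1, -0.79 for Thbs2, -0.67 for Thbs3, -0.56 for Tnc, -0.16 for Nid1 and -0.46 for Nid2. It called 1 other matricellular gene lower and 0 higher, and 0 genes in either direction of the other 3 lists. With the columns numbered 1 and 2 it called 2383 genes, Fn1 at -0.19 and Nid1 at -0.32 did not pass, and the genes called higher were 0 matricellular, 1 basement membrane, 0 receptor and 1 of assembly. The cause was not tested.

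With the replicate block 6246 genes were called against 5909, and the 7 calls held. The deviations of same-numbered libraries correlated at 0.136, 0.073 and 0.126, and those of other pairs at -0.138 to 0.018. Each library correlated best with its own number, so the samples may be paired. Because only 2 of 3 were over the 0.1 set beforehand, the main fit did not use the pairing. Depth limits the results for Postn, at 2 counts in all, and for the other genes under the filter.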

Other observations

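In the deposited TPM columns, Thbs1 was listed at 266, 261 and 515 TPM in those named GFP and at 96.4, 104.7 and 155 TPM in those named ORAI2, so the highest ORAI2 value stayed under the lowest GFP value. Thbs2 was likewise separate, at 159, 153 and 119 against 80.2, 76.1 and 89.9 TPM. So was Tnc, at 30.1, 24.2 and 27.5 against 17.6, 14.65 and 22.9 TPM. Nid2 was separate by a very narrow margin, at 3.92, 4.33 and 5.17 against 2.51, 2.59 and 3.91 TPM. The column named ORAI2-3, which lists Orai2 near the GFP columns, is counted here by its name only. Fn1 overlapped, at 1305, 1462 and 1055 against 1147, 1277 and 658 TPM. Thbs3, at 33.0, 34.8 and 65.7 against 18.6, 21.4 and 44.9 TPM, overlapped through the columns numbered 3. Nid1, at 39.8, 34.9 and 40.6 against 30.1, 29.3 and 45.0 TPM, overlapped through the column named ORAI2-3. Across genes with a mean of at least 50 counts, Spearman's rho with the column GFP-1 was 0.943 for the TPM column GFP-3 and 0.966 for ORAI2-3, while the counts of the same names gave 0.997 and 0.984. These are correlations across genes, which are not independent replicates.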
